A study of Mus musculus with 4 samples.

Results

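Iron enters most cells as transferrin-bound ferric iron, is reduced and carried into the cytosol, and is then used, stored in ferritin or exported. The 10 genes described here encode proteins of iron uptake, storage and export and of their control. They include the iron-reducing enzymes Cybrd1 and Steap3, the carrier transferrin (Trf), its receptor (Tfrc) and the ferrous iron transporter Slc11a2. The others are the ferritin heavy and light chains (Fth1 and Ftl1), the exporter ferroportin (Slc40a1) and the iron regulatory proteins Aco1 and Ireb2. The 10 genes were chosen by name. All 10 were present in both deposited tables, out of 19968 genes listed in both. The group was proposed after the lower level of Cybrd1 in the cKO libraries was known, so differences between cKO and floxed are given as a description.

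Gene expression was measured by RNA sequencing of cerebral cortex dissected from C57BL/6 mouse embryos at embryonic day 15. Embryos carried either a conditional knockout of Prdm16 (Prdm16cKO) or floxed Prdm16 alleles (Prdm16fl/fl). Prdm16 encodes a zinc-finger transcriptional regulator expressed in cortical radial glia. The labels name 2 samples of each genotype and give neither the Cre line nor the deleted exon, while the design text describes triplicate telencephalic tissue. The tables held 2 libraries labelled cKO, called cKO 1 and cKO 2, and 1 floxed library, with totals of 19518174, 18581791 and 17841685 counts. Levels are counts scaled to the library total (CPM). An error between libraries therefore exists for cKO only (SD, n = 2), every floxed level is that of 1 library, and both cKO libraries are set against that same library.

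A few features of the libraries bear on iron genes. The title of 1 sample of each genotype contains the word Blood, without explanation, and which columns these samples gave is not known. The summed level of the 15 listed erythroid genes was 1609 CPM in cKO 1, 1301 CPM in cKO 2 and 1761 CPM in floxed. Single genes did not all follow the sum. Over the 14 tested, the median log2 fold against floxed was 0.41 in cKO 1 and 0.50 in cKO 2. Beyond counting error, 3 were higher and 3 lower in both cKO libraries, where 5.16% and 7.52% of all 16725 tested genes were. Markers of meninges and fibroblasts summed to 927, 54.1 and 586 CPM. All 15 were higher than floxed in cKO 1 and lower in cKO 2 beyond counting error, a pattern of 3.67% of tested genes. Endothelial markers summed to 540, 298 and 452 CPM, pericyte and smooth muscle markers to 288, 112 and 231 CPM, and microglia and macrophage markers to 206, 67.5 and 155 CPM, in the same order of libraries. Choroid plexus markers summed to 1140, 345 and 1146 CPM, of which Ttr alone gave 972, 295 and 996 CPM. The median log2 fold of the 10 tested was 0.11 in cKO 1 and -1.69 in cKO 2. Cortical neuron markers, which check the labelled tissue, summed to 7647, 7711 and 7651 CPM. Radial glia markers, of the neural stem cells, summed to 2449, 2406 and 1793 CPM. Beyond counting error, 6 of 10 were higher in both cKO libraries and 0 lower, against 5.16% and 7.52% of tested genes. Prdm16 itself had 34.6 CPM in cKO 1, 24.1 CPM in cKO 2 and 30.2 CPM in floxed, on 676, 447 and 538 counts. A count over all its exons thus lay above floxed in cKO 1 (log2 fold 0.20) and below it in cKO 2 (-0.33). For this reason cKO below refers to the label. In such bulk tissue, fewer cells of a type and less RNA per cell cannot be told apart.

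Cells adjust this route through the iron-responsive element, a short RNA hairpin bound by the iron regulatory proteins when iron is scarce. In the 5′ untranslated region of ferritin and ferroportin mRNAs the bound hairpin blocks translation, which RNA sequencing does not measure. In the 3′ untranslated region of the transferrin receptor mRNA it protects the message from decay, which would appear as a higher RNA level. The hairpin has an unpaired C, a paired stem and a CAGTG loop. Its form was searched on the sense strand of protein-coding transcripts of GENCODE M21 (GRCm38) as a C, a stem arm NNNNN, the loop CAGTGN and a closing arm NNNNN, with all 5 stem pairs formed (Watson-Crick or G-T) and no G at the last loop base. The form was found in the 5′ region of 23 of 20916 genes (0.11%) and the 3′ region of 100 of 21707 genes (0.461%), regions of all lengths. Among the 10 iron genes, 4 held it, with 7 elements of this exact form in all. Elements of another form in the same mRNAs would be missed, and the numbers given to Tfrc elements count only those found. They are shown because ferritin, ferroportin and transferrin receptor mRNAs are known targets of the iron regulatory proteins, with the unpaired C and the loop in capitals:
Fth1, 5′ region, chr19:9982732-9982760, plus strand: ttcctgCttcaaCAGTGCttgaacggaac
Ftl1, 5′ region, chr7:45459779-45459807, minus strand: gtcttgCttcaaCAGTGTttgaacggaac
Slc40a1, 5′ region, chr1:45925465-45925493, minus strand: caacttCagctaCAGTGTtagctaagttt
Tfrc, 3′ region, element 1, chr16:32631219-32631247, plus strand: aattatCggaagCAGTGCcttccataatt
Tfrc, 3′ region, element 2, chr16:32631598-32631626, plus strand: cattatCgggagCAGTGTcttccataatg
Tfrc, 3′ region, element 3, chr16:32631663-32631691, plus strand: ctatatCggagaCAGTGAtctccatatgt
Tfrc, 3′ region, element 4, chr16:32631710-32631738, plus strand: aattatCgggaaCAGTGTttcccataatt
The ferritin elements shared 26 of 29 bases with each other. The ferroportin element shared 13 of 29 bases with either of them. Elements 1 and 2 of Tfrc shared 25 of 29 bases. No element of this exact form was found in Cybrd1, Steap3, Trf, Slc11a2, Aco1 or Ireb2, which says only that these letters are not in the transcripts searched. Some Slc11a2 transcripts are known to carry a 3′ element, so the search does not divide the group by how its mRNAs are controlled.

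The levels of the 10 genes differed widely, and the lowest lay near the limit of detection. Per kilobase of annotated exon, Fth1 stood at 132 CPM per kb in floxed and Ftl1 at 129 CPM per kb. Aco1 (16.8), Ireb2 (11.1), Tfrc (7.23) and Slc11a2 (6.74 CPM per kb) formed a middle tier, followed by Slc40a1 (1.30), Cybrd1 (0.966), Steap3 (0.794) and Trf (0.101 CPM per kb). The order of close neighbours was not stable. Ftl1 exceeded Fth1 in cKO 2 (171 against 130 CPM per kb) and not in cKO 1 (116 against 140). The M21 annotation of Fth1 starts at 9980598, upstream of its deposited start at 9982703. Its 3469 annotated exon bases thus include bases outside the deposited span, which lowers its level per kilobase. The order of Fth1 and Ftl1 by this measure is therefore not read. With the length of the lowest-numbered protein-coding transcript instead, a choice made after seeing the data, floxed Fth1 had 494 CPM per kb and Ftl1 179 CPM per kb. By that length Slc11a2 (14.2) stood above Tfrc (9.15) and Steap3 (1.55) above Cybrd1 (0.966 CPM per kb) in floxed.

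**Figure D1:**
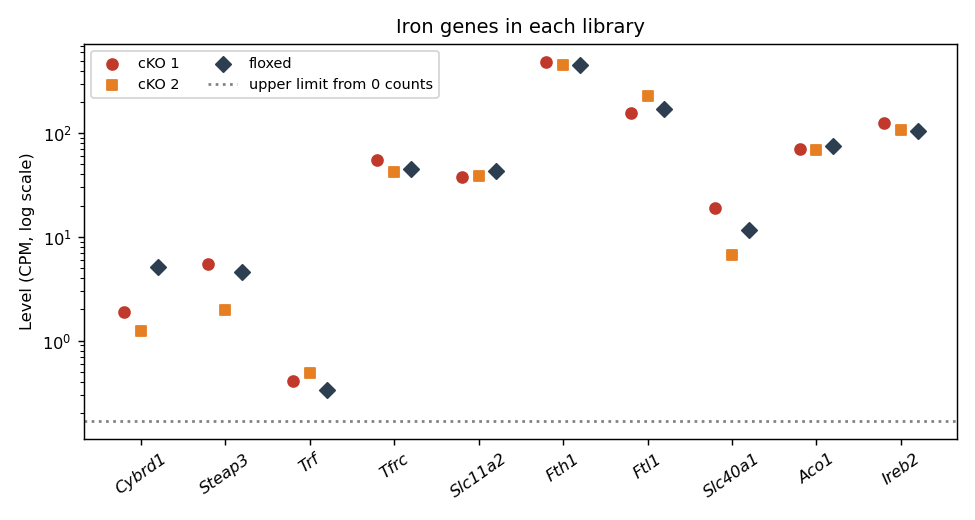
Level of each iron gene (CPM, logarithmic axis) in cKO 1, cKO 2 and floxed, 1 point per library, ordered by role from iron reduction to regulation. Cybrd1 is lower in both cKO libraries than in floxed, Slc40a1 and Steap3 are lowest in cKO 2, and Trf lies just above the dotted line, the largest level that a count of 0 allows in any library (0.168 CPM).

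Of the iron genes, Cybrd1 alone was lower in both cKO libraries by over 2-fold. Cybrd1 (ENSMUSG00000027015, GRCm38 chromosome 2, 71117923 to 71142926, plus strand) encodes duodenal cytochrome b, a membrane enzyme that reduces ferric iron and is best known from the gut. Its counts were 37, 23 and 92 in the cKO 1, cKO 2 and floxed libraries, the order kept below, which is 1.90, 1.24 and 5.16 CPM. Both cKO libraries thus lay below floxed. The level was 2.72-fold lower in cKO 1, a ratio of 0.368 with an exact 95% counting interval of 0.244 to 0.544. In cKO 2 it was 4.17-fold lower, a ratio of 0.240 (0.145 to 0.382). The cKO libraries differed from each other by no more than counting error, with a ratio of cKO 2 to cKO 1 of 0.653 (0.370 to 1.13). The mean over cKO was 1.57 ± 0.465 CPM (SD, n = 2), and the edgeR fit gave a log2 fold of -1.71 (SE 0.48). Over 2-fold lower levels in both cKO libraries occurred in 0.837% of the 16725 genes tested, and since Cybrd1 was known to be among them nothing is read from this share. In the authors' deposited tables Cybrd1 was marked significant in both comparisons, with log2 folds of -1.44 and -2.06. Those tables marked 2.35% of their genes for cKO 1 and 6.72% for cKO 2, and the mark did not follow the adjusted p alone (see Steap3 below). Nothing is read from the marks of Cybrd1 either, because its low level was known. In cKO 1 the level of Cybrd1 was low while the marker lists of meninges, endothelium, pericytes, choroid plexus and microglia or macrophages all had medians above 0 (0.11 to 0.68 on the log2 scale), and in cKO 2 it was low together with those lists (medians -4.31 to -0.73). Radial glia markers had medians of 0.40 in cKO 1 and 0.35 in cKO 2. The part of cell composition in the level of Cybrd1 was not tested.

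The genes whose pair of log2 folds was closest to that of Cybrd1, among genes of at least 5 CPM in some library, were Col22a1, Smoc1, Pou3f4, Vit and Thsd4. Likeness was the distance between pairs of folds over 3 libraries, from 0.22 for Col22a1 to 0.74 for Thsd4. Col22a1, a collagen gene, had 7.12 CPM in cKO 1, 3.98 CPM in cKO 2 and 16.5 CPM in floxed. Smoc1, which encodes a secreted calcium-binding matrix protein, had 16.8, 10.7 and 36.3 CPM. Pou3f4 encodes a POU-domain transcription factor and Vit an extracellular matrix protein.

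Steap3, the reductase that acts on iron released from transferrin in endosomes, did not follow Cybrd1. The gene (ENSMUSG00000026389, chromosome 1, 120190757 to 120272705, minus strand) gave counts of 107, 37 and 81, which is 5.48, 1.99 and 4.54 CPM. Floxed lay between the cKO libraries. The ratio to floxed was 1.21 (0.896 to 1.63) in cKO 1, within counting error, and 0.439 (0.289 to 0.655) in cKO 2. In cKO 2 the share of tested genes over 2-fold lower was 7.63%. The authors' deposited tables marked Steap3 significant for cKO 2 (log2 fold -1.19) and not for cKO 1. These marks did not follow the adjusted p alone. Among the iron genes, only folds beyond 2-fold were marked. Unmarked were Ftl1 in cKO 2 (adjusted p 3.0e-31 by the authors' unnamed test) and Slc40a1 in cKO 1 (1.5e-07) and cKO 2 (2.5e-06). An absent mark is therefore not read as no difference. The fitted log2 fold of Steap3 over both cKO libraries was -0.28 (SE 0.60).

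Transferrin and its receptor were measured with very different precision. Trf (ENSMUSG00000032554, chromosome 9, 103204001 to 103230444, minus strand) gave only 8, 9 and 6 counts, which is 0.410, 0.484 and 0.336 CPM. It was the 1 member that did not pass the expression filter. Its ratios to floxed had counting intervals of 0.371 to 4.26 and 0.458 to 4.92, so even a 2-fold difference was not detectable at this depth. Of its exon bases in GENCODE M21, 63.5% are shared with the same-strand gene Gm20425, which neither deposited table lists. Whether this overlap affected the counts of Trf is not known, and its level is uncertain for that reason too.

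Tfrc (ENSMUSG00000022797, chromosome 16, 32608920 to 32632794, plus strand), which brings transferrin into the cell, gave counts of 1081, 786 and 798, which is 55.4, 42.3 and 44.7 CPM. The cKO 1 library was the high library, and cKO 2 and floxed were alike within counting error. The ratio to floxed was 1.24 (1.13 to 1.36) in cKO 1 and 0.946 (0.856 to 1.04) in cKO 2. An interval above 1 was found in 17.8% of tested genes in cKO 1. The fitted log2 fold was 0.13 (SE 0.19), smaller than its error. Slc11a2 (ENSMUSG00000023030, chromosome 15, 100387898 to 100425072, minus strand), which carries ferrous iron out of the endosome, had 37.9 CPM in cKO 1, 38.5 CPM in cKO 2 and 42.8 CPM in floxed, on 739, 716 and 764 counts. The cKO libraries agreed closely (38.2 ± 0.474 CPM, SD, n = 2) and lay slightly below floxed. The ratios were 0.884 (0.798 to 0.980) and 0.900 (0.811 to 0.998), and with TMM scaling the second interval included 1.

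Ferritin, the hollow shell that stores iron, had heavy-chain levels within 1.06-fold of floxed and a light chain that differed between the cKO libraries. Fth1 (ENSMUSG00000024661, chromosome 19, 9982703 to 9985092 in the tables, plus strand) encodes the heavy chain, which oxidises iron for storage. It had 9498, 8384 and 8192 counts in cKO 1, cKO 2 and floxed, or 487, 451 and 459 CPM. These lay within a narrow band around floxed, with ratios of 1.06 (1.03 to 1.09) and 0.983 (0.953 to 1.01). Ftl1 (ENSMUSG00000050708, chromosome 7, 45457944 to 45459884, minus strand) encodes the light chain, which aids formation of the iron core. It had 3038, 4256 and 3085 counts, or 156, 229 and 173 CPM. cKO 2 was high and cKO 1 low, with floxed between them. The ratio to floxed was 0.900 (0.856 to 0.947) in cKO 1 and 1.32 (1.26 to 1.39) in cKO 2. Lower in cKO 1 and higher in cKO 2 beyond counting error was the pattern of 2.1% of tested genes. Ftl1 shares 26.5% of its exon bases with Gm10252 on the opposite strand, which the library kit does not separate. That gene had 18, 29 and 18 counts. The listed ferritin copies Fth-ps2 and Ftl1-ps1 had at most 8 counts in any library.

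The ratio of Fth1 to Ftl1 counts within a library, which needs no scaling between libraries, set the 3 libraries apart. It was 3.13 (3.001 to 3.26) in cKO 1, 1.97 (1.90 to 2.04) in cKO 2 and 2.66 (2.55 to 2.77) in floxed. No intervals overlapped, and floxed lay between the cKO libraries, so the difference within cKO was larger than that of either from floxed. The ratio is not corrected for length and compares libraries only.

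Ferroportin, the only known cellular iron exporter, lay on opposite sides of floxed in the cKO libraries. Slc40a1 (ENSMUSG00000025993, chromosome 1, 45908068 to 45926523, minus strand) gave counts of 373, 123 and 209, which is 19.1, 6.62 and 11.7 CPM. Floxed lay between the cKO libraries, whose mean was 12.9 ± 8.83 CPM (SD, n = 2). The ratio to floxed was 1.63 (1.37 to 1.94) in cKO 1 and 0.565 (0.449 to 0.709) in cKO 2, a pattern beyond counting error shared by 3.67% of tested genes. The fitted log2 fold of 0.14 (SE 0.54) averages these. The same order of libraries, cKO 1 above floxed above cKO 2, was found in the summed markers of meninges, endothelium, pericytes and microglia or macrophages. Of the 15 microglia and macrophage markers, 6 shared the pattern of Slc40a1 beyond counting error, and 11 had an interval below 1 in cKO 2. Over all 16725 tested genes, 4100 had an interval below 1 in cKO 2. The range was wide: Cd163 had 0 counts in cKO 2, which allows up to 0.161 CPM, while P2ry12 had 81, 63 and 78 counts. The part of these cells in the levels of Slc40a1 and Steap3 was not tested.

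**Figure D2:**
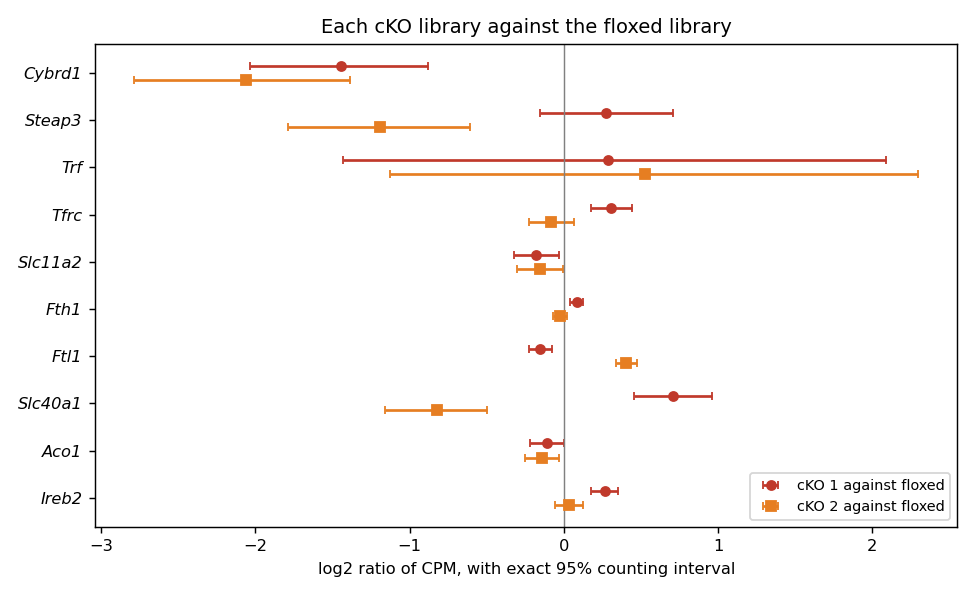
Log2 ratio of CPM in cKO 1 (circles) and cKO 2 (squares) to floxed for each iron gene, with exact 95% intervals that cover counting error only. Cybrd1 lies to the left of 0 in both, Slc40a1 and Ftl1 lie on opposite sides of 0 in the 2 cKO libraries, and the intervals of Trf, on 6 to 9 counts, span 0 widely.

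The iron regulatory proteins bind the hairpins shown above. Aco1 (ENSMUSG00000028405, chromosome 4, 40143081 to 40198338, plus strand), which switches between an aconitase and an RNA-binding form, had 1369, 1275 and 1349 counts in cKO 1, cKO 2 and floxed, or 70.1, 68.6 and 75.6 CPM. The cKO libraries again agreed closely (69.4 ± 1.08 CPM, SD, n = 2), with ratios of 0.928 (0.860 to 1.0008) and 0.907 (0.840 to 0.980). With TMM scaling the first interval excluded 1 and the second included it (log2 folds -0.12 and -0.097). Ireb2 (ENSMUSG00000032293, chromosome 9, 54863789 to 54912530, plus strand), whose protein is degraded when iron is plentiful, had 2471, 2002 and 1879 counts, or 127, 108 and 105 CPM. It was high in cKO 1 (ratio 1.20, 1.13 to 1.28) and within counting error of floxed in cKO 2 (1.02, 0.960 to 1.09). The ratio of Ireb2 to Aco1 counts was 1.80 (1.69 to 1.93) in cKO 1, 1.57 (1.46 to 1.69) in cKO 2 and 1.39 (1.30 to 1.49) in floxed. Both cKO libraries lay above floxed, although the intervals of cKO 2 and floxed overlapped.

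**Figure D3:**
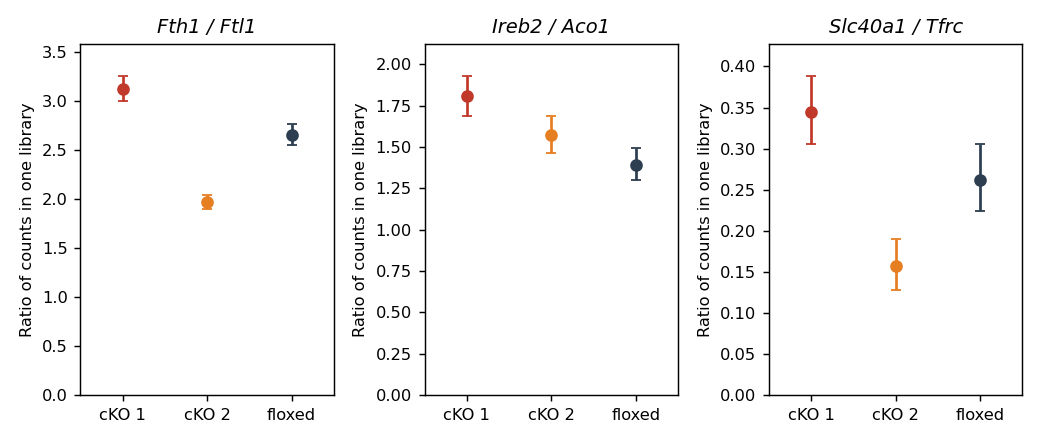
Ratio of the counts of 2 iron genes within each library, with exact 95% counting intervals, for Fth1 over Ftl1, Ireb2 over Aco1 and Slc40a1 over Tfrc, each axis starting at 0. Floxed lies between the cKO libraries for Fth1 over Ftl1 (2.66) and Slc40a1 over Tfrc (0.262, against 0.345 in cKO 1 and 0.157 in cKO 2) and is lowest for Ireb2 over Aco1 (1.39).

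Across the 9 members that passed the expression filter, the median log2 fold against floxed was 0.08 in cKO 1 and -0.14 in cKO 2. Over all tested genes it was 0.01 and -0.04. Beyond counting error, 2 members were lower in both cKO libraries (Cybrd1 and Slc11a2), where 7.52% of tested genes were, 0 were higher in both (5.16%) and 2 went in opposite directions (Slc40a1 and Ftl1), where 5.77% did. With TMM scaling 1 member, Cybrd1, remained lower in both. Between the cKO libraries themselves, 5 members were lower in cKO 2 than in cKO 1 (Slc40a1, Steap3, Tfrc, Ireb2 and Fth1), where 27.3% of tested genes were, and 1 was higher (Ftl1), where 17.0% were. The largest of these gaps was that of Slc40a1, 2.89-fold lower in cKO 2, followed by Steap3 at 2.75-fold. With edgeR's quasi-likelihood test over all genes, 0 of the 9 were called at an adjusted p under 0.05. That test called 0.00598% of tested genes. At an unadjusted p under 0.05 it counted 1 member, Cybrd1, where 1.53% of all genes were, and nothing is read from this because the low level of Cybrd1 prompted the choice of the group. DESeq2 called 0 of the 9 where it called 0.0299% of all genes. Apart from Cybrd1, no tested member had a fitted log2 fold beyond 0.28 in size, and in 6 of these 8 the fold was smaller than its SE.

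The wider iron pathway was described with 4 lists of 63 names, of which 54 were in both tables and 53 were tested. In all, 2 of the 53 were higher in both cKO libraries beyond counting error, 5 were lower in both, and edgeR called 0. These counts lie near the shares of all tested genes, 5.16% higher and 7.52% lower in both. With TMM scaling 2 of those 5 remained. Of the 16 tested genes of iron handling, Ncoa4, the receptor that delivers ferritin for degradation, was higher in both (69.0, 68.1 and 61.0 CPM in cKO 1, cKO 2 and floxed). Pcbp1, an iron chaperone that loads ferritin, was also higher (330, 355 and 314 CPM). Slc39a14, a membrane transporter of zinc, manganese and iron, was lower in both, with log2 folds of -0.33 in cKO 1 and -0.40 in cKO 2 from 17.1 CPM in floxed. Pcbp2, another chaperone, was lower at 147 and 145 CPM against 157 CPM.

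Genes of heme and of iron-sulfur clusters were lower in both cKO libraries at about the 7.52% of all tested genes. Of 14 heme genes, 0 were higher and 1 was lower in both cKO libraries, the heme transporter gene Slc48a1 (61.5, 64.6 and 70.8 CPM), with medians of -0.03 in cKO 1 and 0.05 in cKO 2. Of 18 iron-sulfur cluster and mitochondrial iron genes, 0 were higher and 1 was lower, the mitochondrial importer gene Slc25a37 (15.3, 15.9 and 19.1 CPM), with medians of 0.0021 and 0.11. Slc48a1, Slc25a37 and Pcbp2 were not below floxed beyond counting error in both with TMM scaling. Among 5 other mRNAs known for an iron-responsive element, Alas2, which makes heme in red cell precursors and is also on the erythroid list, was lower in both (30.3, 24.0 and 38.9 CPM).

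A set of iron genes outside the main 10 shared the direction of Slc40a1, higher in cKO 1 and lower in cKO 2 beyond counting error. There were 6 such genes among the 53, against 3.67% of all tested genes, and they are named here after their values were seen. Cp, the ferroxidase ceruloplasmin that works with ferroportin, had 147, 16 and 75 counts. Scara5, a ferritin receptor, had 60, 3 and 32 counts, and Bmp6, a signal for hepcidin in the liver, had 293, 30 and 208 counts. The metal transporter gene Slc39a8 (15.9, 7.37 and 12.7 CPM), the heme oxygenase gene Hmox1 (14.0, 5.81 and 9.19 CPM) and the hypoxia factor gene Epas1 (976, 420 and 782 counts) completed the set. Markers of meninges, vessels and macrophages had the same order of libraries, and their part in these levels was not tested.

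**Figure D4:**
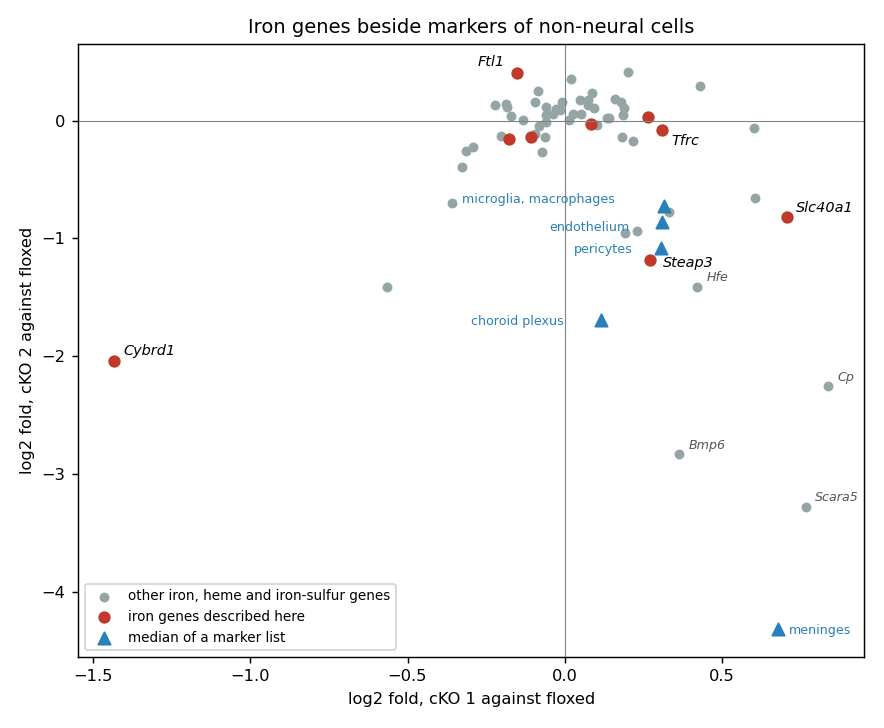
Log2 fold against floxed (0.5 counts added) in cKO 1 (horizontal) and cKO 2 (vertical) for the 9 tested iron genes described here, the tested genes of the 4 other iron lists and the medians of 5 marker lists. Cybrd1 is the leftmost point, low in both, while Slc40a1, Steap3, Cp, Scara5 and Bmp6 lie at the lower right with the marker lists.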

How the data were processed

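The members and gene lists were chosen with earlier results of these data known. The authors deposited raw counts per gene, per the file headers. Per the submitters' processing notes the tools were HTSeq 0.6.0, TopHat2 2.0.12 and Bowtie2 2.2.3, and the build was mm9. Counting options: not given in the sources used here. Positions in the tables equalled GENCODE M21 (GRCm38) for 9 of 10 members and are given as GRCm38. The authors' normalized values were, from the values, CPM of a library total, and these deposited CPM columns gave the totals used here. The authors' deposited fold (a ratio), log2 fold and p-values compare 1 library with 1 by a test that no source used here names.

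Columns were assigned to groups by KO or WT in their names, and the floxed column was the same in both tables. No label says that the libraries came from separate animals, and a p-value here reflects library spread alone, possibly technical. Genes in both tables entered edgeR 4.0.16 under R 4.3.3 (quasi-likelihood test, library totals, minimum count 10, Benjamini-Hochberg), with 1 residual degree of freedom and floxed assumed to vary like cKO. The SE of a fitted log2 fold was derived as its absolute value over the square root of that test's F statistic. Count ratios carry exact (Clopper-Pearson) 95% conditional binomial intervals, and beyond counting error means that the interval excludes 1. Intervals and the 3-count limit for a 0 cover counting error only. Medians of log2 folds used 0.5 added counts. Named beside the members were up to 3 genes per direction and list, those with the largest smaller fold among genes beyond counting error in both cKO libraries, and the 5 genes nearest Cybrd1. Alternatives were TMM, DESeq2 1.42.0 (size factors and test), no filter, 2 added counts, totals without erythroid genes, another fold rule, other lengths and leaving out a cKO library.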

Additional observations from a re-analysis of the deposited data

How the results depend on the processing

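Scaling and the test moved the count of genes called over the whole table, 1 with library totals: it was 0 with TMM factors, 0 with DESeq2 size factors, 0 without the expression filter and 5 with the DESeq2 test. No member was called under any of these. Members lower in both cKO libraries beyond counting error numbered 1 with TMM, and Fth1 in cKO 2 turned to a log2 fold of 0.018. Under the same scaling Aco1 was lower beyond counting error in cKO 1 and no longer in cKO 2. In the other iron lists, TMM left 2 genes lower in both, and requiring over 1.5-fold in both libraries left 0 higher and 0 lower. Fth1 exceeded Ftl1 in floxed 1.03-fold per kilobase of annotated exon, which for Fth1 includes bases outside its deposited span. The excess was 2.66-fold without length scaling and 2.77-fold per kilobase of transcript, the last chosen after seeing the data. Adding reads of ferritin copies, also chosen then, changed no direction and no side of the counting threshold. Leaving out a cKO library gives a fold with no test: Cybrd1 ranged from -2.06 to -1.44 on the log2 scale. The sign turned for Tfrc (-0.080 to 0.31), Slc40a1 (-0.82 to 0.71), Fth1 (-0.025 to 0.084), Ftl1 (-0.15 to 0.41) and Steap3 (-1.19 to 0.27). No paired analysis was possible because the tables hold 1 floxed library and its columns cannot be tied to single samples. Depth limits Trf most, at 6 to 9 counts, and Cybrd1 next, at 23 to 92.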
